A study of Mus musculus with 31 samples.

Results

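The 10 genes described here are 7 neutrophil marker genes and the 3 genes for colony-stimulating factors, chosen by name out of the 46072 genes measured in 31 libraries of messenger RNA from mouse tumors. The markers are S100a8, S100a9, Mmp8, Lcn2, Retnlg, Cxcr2 and Csf3r, and the factor genes are Csf1, Csf2 and Csf3. RM-9 is a mouse prostate cancer line and MC-38 a mouse colon cancer line, and each was grown under the skin of the right hind leg of wild-type male C57BL/6J mice. Groups were control mice without treatment and mice whose tumor, at about 8 mm in diameter, had received a single radiation therapy (RT) dose of 15 Gy before collection at 3 h, 12 h or 24 h. Each group held 4 mice, with 1 library per mouse, except RM-9 RT 24 h with 3. The labels give the control mice the 3 h time point, and the same 4 control mice of a tumor model served all 3 RT times, so that elapsed time and RT cannot be told apart at 12 h and 24 h. Values are TPM, transcript levels scaled for gene length and for the total of the library.

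Neutrophils are made in bone marrow under the control of granulocyte colony-stimulating factor (G-CSF, gene Csf3), which acts through its receptor Csf3r, and they leave blood for tissue along chemokines that bind the receptor CXCR2. The related factors GM-CSF (Csf2) and M-CSF (Csf1) act on several myeloid cells and on monocytes and macrophages. S100a8 and S100a9 together form calprotectin, the most abundant cytosolic protein of neutrophils, while Mmp8 (neutrophil collagenase) and Lcn2 (lipocalin 2, which binds iron-carrying siderophores) are stored in granules. Retnlg is a resistin-like gene of neutrophils. Not all of the markers are made by neutrophils alone, since monocytes carry S100a8 and S100a9, and epithelial and tumor cells can make Lcn2. In tumor pieces sequenced whole, more neutrophils and more RNA per neutrophil cannot be told apart.

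The depth was 21.4 to 29.4 M reads per library, and reads per gene were approximated from coverage and exon length. By that estimate Csf3 rested on 0 to 25.0 reads and Csf2 on 0 to 66.7 reads in a library, against 902 to 7643 reads for Csf1. No counting error can be given for TPM. Ly6g, the surface marker used to define mouse neutrophils, was at 0.154 to 3.43 TPM in every RM-9 library but at 0 in 15 of 16 MC-38 libraries. The keratinocyte genes summed to 116 TPM in MC-38 RT 12 h mouse 4 and to 3.43 to 27.3 TPM in all other libraries, and skeletal muscle genes ran from 2.75 to 9783 TPM. TPM also depended on mitochondrial transcripts, which took 47.3% to 57.2% of TPM in RM-9 and 22.5% to 40.6% in MC-38 libraries.

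Some promoter sequences are shown first, for the calprotectin pair, which rose and fell with each other across MC-38 mice, and for 2 of the factor genes that rose in MC-38 tumors. Each is the 250 bases before the RefSeq start on mouse build GRCm38.p6, written 5′ to 3′ on the strand of the gene. Capitals mark matches, on either strand, to the letters TTNNGNAA for C/EBP factors, GAGGAAG for PU.1 and, for NF-kB, GGG and CC with 5 bases of any kind between them, and neighbouring NF-kB matches can overlap.
S100a8, chr3:90668821-90669070, plus strand: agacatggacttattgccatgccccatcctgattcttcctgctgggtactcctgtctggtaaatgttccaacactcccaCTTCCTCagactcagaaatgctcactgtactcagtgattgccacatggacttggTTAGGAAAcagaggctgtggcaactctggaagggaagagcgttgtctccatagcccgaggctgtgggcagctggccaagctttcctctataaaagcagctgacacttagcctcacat
S100a9, chr3:90695722-90695971, minus strand: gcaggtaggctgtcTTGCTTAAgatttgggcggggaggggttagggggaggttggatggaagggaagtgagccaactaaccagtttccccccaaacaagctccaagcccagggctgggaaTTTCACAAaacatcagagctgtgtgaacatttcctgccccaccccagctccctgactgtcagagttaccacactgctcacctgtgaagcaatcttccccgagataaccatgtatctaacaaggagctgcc
Csf1, chr3:107760470-107760719, minus strand: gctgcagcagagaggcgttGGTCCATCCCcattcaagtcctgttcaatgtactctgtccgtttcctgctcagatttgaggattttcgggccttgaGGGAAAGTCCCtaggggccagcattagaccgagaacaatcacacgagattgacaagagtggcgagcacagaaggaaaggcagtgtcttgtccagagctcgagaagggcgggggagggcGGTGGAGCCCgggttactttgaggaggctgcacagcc
Csf2, chr11:54249900-54250149, minus strand: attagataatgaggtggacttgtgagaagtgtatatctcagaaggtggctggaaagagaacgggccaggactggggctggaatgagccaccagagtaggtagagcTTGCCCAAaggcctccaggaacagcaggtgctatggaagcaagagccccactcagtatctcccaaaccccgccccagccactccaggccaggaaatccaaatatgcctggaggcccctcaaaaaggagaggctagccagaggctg

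S100a9 held 2 C/EBP matches, and S100a8 held 1 together with a PU.1 match. The Csf1 window held 4 NF-kB matches, and the Csf2 window held 1 C/EBP match. The S100a8 window ends 93 bases inside the gene as the deposited coordinates place it, and the Csf2 window ends 232 bases before it. A window was at hand for 9 of the 10 genes, all but Csf3. C/EBP letters stood in 6 of these 9 windows, against 36.8% of 32851 promoter windows, and PU.1 letters in 4 of 9, against 10.6%. NF-kB letters stood in 4 of 9 windows against 45.8%, and the AP-1 letters TGANTCA in 0 of 9 against 6.75%. Such matches are descriptions of the sequence, and they were not tested.

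To see whether transcripts of the colony-stimulating factors changed after RT, Csf1, Csf2 and Csf3 were compared with control within each tumor model. In MC-38 tumors at 24 h all 3 factor genes rose, and in RM-9 tumors none passed the test at any time. Changes are log2 differences of TPM with 0.5 added, fitted with limma, and a call is a Benjamini-Hochberg adjusted p under 0.05 over all genes tested. Of all genes tested in MC-38 tumors, 13.8% were called at 24 h and 13.2% were called higher, while 3 of the 10 genes were called, all factor genes and all higher.

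Csf3, the gene for the main growth factor of neutrophils, lies on chromosome 11 (98701263 to 98703629, plus strand). In MC-38 control mice 1 to 4 it was at 0.0532, 0.145, 0 and 0 TPM, and at 24 h it was at 0.845, 0.366, 0.563 and 0.456 TPM. All 4 irradiated mice were above all 4 control mice, which held at most about 4 reads of the gene. The log2 change was 0.93 (SE 0.23, limma adjusted p = 0.016), and the exact two-sided permutation p of mean TPM was 0.0286, the smallest that 70 assignments of the mice allow. The call was lost in 2 of 18 alternative fits, with only the compared groups (limma adjusted p = 0.061) and with the mean TPM filter at 5 (adjusted p = 0.18). At 12 h Csf3 was at 0.511, 0.451, 0.412 and 0.29 TPM, again above every control mouse. Its change then was 0.74 (SE 0.23, limma adjusted p = 0.029), and it was the 1 gene called of the 10, at a time when 31.1% of all genes tested were called (4470 higher and 406 lower, or 984 and 1569 with median-ratio scaling). That call did not hold in 10 of 18 alternative fits, where the adjusted p reached 0.21. Among them was the fit with median-ratio scaling (limma adjusted p = 0.075). At 3 h the 4 mice stood at 0.41, 0.619, 0.33 and 0 TPM, so 3 were above the control mice, and the change was 0.56 (SE 0.23, limma adjusted p = 0.21).

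In RM-9 tumors Csf3 was low before RT too, and the groups overlapped at every time. Control mice had 0.134, 0.298, 0.102 and 0.117 TPM, and the 3 mice at 24 h had 0.274, 0.162 and 0.434 TPM. The change was 0.25 (SE 0.23, limma adjusted p = 1.0). The test of the difference between MC-38 and RM-9 in the 12 h change gave 0.68 (95% interval 0.060 to 1.31, limma adjusted p = 0.065), and in the 24 h change 0.68 (95% interval 0.035 to 1.33, adjusted p = 0.20), so neither difference passed the test. The 12 h difference did pass in 4 of 26 alternative fits, among them those with a pseudocount of 0.1 (limma adjusted p = 0.041) and without RM-9 RT 12 h mouse 2 (0.018) or MC-38 control mouse 2 (0.048). Of all genes 0% differed between the models in the 3 h change and 1.81% in the 24 h change, and 0 of the 10 genes did at either time.

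Csf2, the gene for GM-CSF, lies on chromosome 11 (54247271 to 54249667, minus strand) and was close to absent from MC-38 tumors before RT. Control mice had 0.0958, 0, 0 and 0.289 TPM, and mice at 24 h had 1.41, 0.618, 0.966 and 0.765 TPM. The 2 groups did not overlap, and the lowest irradiated mouse was above the highest control mouse. The log2 change was 1.27 (SE 0.27, limma adjusted p = 0.0076), and the permutation p was 0.0286 (exact). The call was lost in 1 of 18 alternative fits, with the mean TPM filter at 5 (limma adjusted p = 0.081). At 3 h (0.524, 0.193, 0.548 and 0 TPM) and 12 h (0, 0.217, 0.294 and 0.354 TPM) the irradiated mice overlapped the control mice. The changes at these times were 0.42 (SE 0.27) and 0.26 (SE 0.27), with limma adjusted p of 0.36 and 0.44.

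RM-9 control tumors held more Csf2, at 0.595, 0.761, 0.938 and 0.31 TPM. At 24 h the 3 mice had 2.46, 0.902 and 1.74 TPM, of which 2 were above every control mouse and 1 was within their range. The change of 0.90 (SE 0.27, 95% interval 0.33 to 1.47) was the largest of the 10 genes at that time, with an unadjusted limma p of 0.0043 and an adjusted p of 0.89. At that time 0 of 14014 genes passed and 681 were under an unadjusted p of 0.05, so 0% were called among all genes and among the 10. At 3 h and 12 h the changes were 0.061 and 0.077. The 24 h change did not differ between the models beyond its error (difference 0.37, 95% interval -0.42 to 1.16, limma adjusted p = 0.59), an interval that does not show that they were alike.

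Csf1, the gene for M-CSF on chromosome 3 (107741048 to 107760469, minus strand), was the highest of the 3 factor genes in both models. MC-38 control mice had 26.4, 62.2, 75.1 and 44.0 TPM, and mice at 24 h had 146, 69.1, 94.9 and 99.8 TPM. At 24 h 3 mice were above every control mouse and mouse 2 was within their range. The log2 change was 1.025 (SE 0.27, limma adjusted p = 0.022), with an exact permutation p of 0.0571. The call did not hold in 6 of 18 alternative fits. These were the fit with only the compared groups (limma adjusted p = 0.11), the one without a filter (adjusted p = 0.052), that without control mouse 1, where the change was 0.74 (limma adjusted p = 0.059), and those that left out control mouse 4 (adjusted p = 0.054), the first RT mouse (0.051) or the fourth RT mouse (0.056). Control mouse 1, the lowest for Csf1, also had the largest mitochondrial share of the MC-38 mice (40.6%) and the most skeletal muscle transcript (9783 TPM), and their part in the result was not tested.

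At 3 h Csf1 was at 54.3 to 79.5 TPM and at 12 h at 53.6 to 79.9 TPM, with changes of 0.36 and 0.47 that did not pass the test. In RM-9 tumors it was at 9.83 to 15.3 TPM in control mice and at 18.4, 13.3 and 15.6 TPM at 24 h, where 2 of the 3 mice were above all control mice. The change was 0.42 (SE 0.20, 95% interval -0.012 to 0.85, limma adjusted p = 1.0). The plot of the 3 factor genes by mouse shows the spread behind each of these values.

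**Figure D1:**
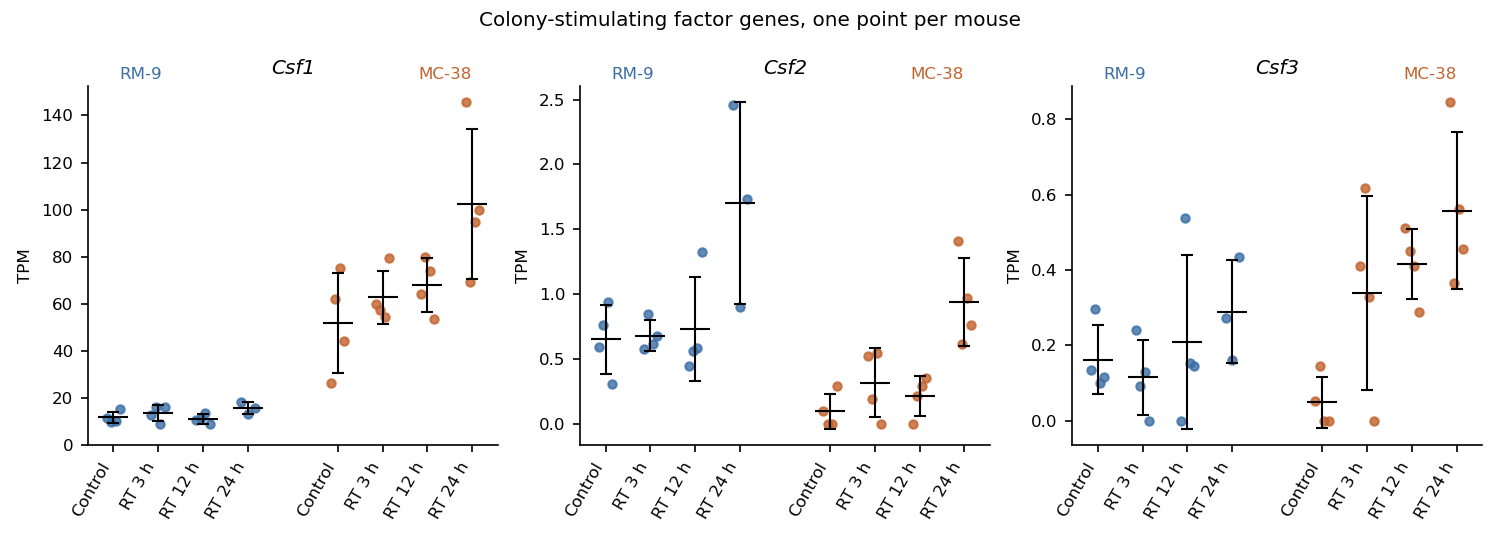
TPM of Csf1, Csf2 and Csf3 on linear axes in RM-9 (blue) and MC-38 (orange) tumors by group, with 1 point per mouse and the mean ± SD of each group in black. In MC-38 tumors the 4 mice at RT 24 h lie above all 4 control mice for Csf2 (0.618 to 1.41 against 0 to 0.289 TPM) and Csf3 (0.366 to 0.845 against 0 to 0.145 TPM), and 3 of 4 do so for Csf1.

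Csf2 and Csf3 had a mean TPM in MC-38 tumors of 0.392 and 0.341, under the mean of 0.5 asked of other genes, as did Csf3 in RM-9 tumors, and they were tested because they had been named. In all, 8 of the 10 genes in MC-38 and 9 of 10 in RM-9 reached that mean. Adding 0.5 to such low values shrinks the change: the ratio of mean TPM at 24 h to control was 9.75 for Csf2 and 11.3 for Csf3, ratios that rest on control means of 0.0963 and 0.0494 TPM. Median-ratio scaling, which removes the shift of the median gene (0.22 at 24 h), turned the split of all called genes from 2077 higher and 86 lower to 1221 and 1288, while the changes of Csf1, Csf2 and Csf3 were 0.76, 1.19 and 0.89 (limma adjusted p = 0.038, 0.010 and 0.021).

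The marker genes were then compared in the same way, to look for a rise in neutrophil transcripts. No marker was called by limma against control in either model at any time. Of 42 tests, 7 markers in 6 comparisons, 6 were under an unadjusted p of 0.05 and 0 under an adjusted one. Over all genes tested, the share under an unadjusted limma p of 0.05 ran from 4.86% (RM-9 RT 24 h) to 48.1% (MC-38 RT 12 h). RM-9 RT 3 h gave 21.8%, RM-9 RT 12 h 31%, MC-38 RT 3 h 19.9% and MC-38 RT 24 h 30.5%. The 6 of 42 were therefore no excess over all genes. At 3 h in MC-38 tumors 0 of the 10 genes were called, against 0.0637% of all genes. In MC-38 tumors at 24 h all 7 had a change above 0, from 0.20 for Csf3r to 0.90 for S100a9, with a median of 0.43 against 0.22 over all genes, and S100a9 came nearest to the threshold. With median-ratio scaling Csf3r was at -0.043 and the other 6 stayed above 0.

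S100a9, on chromosome 3 (90692632 to 90695721, minus strand), was at 5.57, 11.5, 4.05 and 7.01 TPM in MC-38 control mice and at 10.4, 9.97, 13.97 and 17.6 TPM at 24 h. Irradiated mice were the higher, but control mouse 2 reached into their range. The log2 change was 0.90 (SE 0.32, 95% interval 0.23 to 1.57, limma adjusted p = 0.069). Without control mouse 2 it was 1.15 (limma adjusted p = 0.027), the 1 call in 18 alternative fits. At 3 h (5.18, 4.01, 10.0 and 3.29 TPM) and 12 h (6.75, 4.70, 6.55 and 4.62 TPM) the mice lay within or below the control range, with changes of -0.32 and -0.22.

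Its partner S100a8, on the same chromosome (90668978 to 90670035, plus strand), was at 3.20, 7.89, 2.03 and 4.89 TPM in MC-38 control mice and at 6.26, 4.64, 8.60 and 10.3 TPM at 24 h. The groups overlapped, and 2 irradiated mice were above every control mouse. The change was 0.75 (SE 0.35, 95% interval 0.0023 to 1.501, limma adjusted p = 0.16). At 12 h it was at 5.60, 4.25, 4.39 and 7.07 TPM. Mouse 4, with 7.07 TPM, was the 1 library of 31 in which S100a8 exceeded S100a9, and it was also the library with 116 TPM of keratinocyte genes. Without that mouse the 12 h change in S100a8 was 0.20 rather than 0.34, and neither passed the test. The part of keratinocyte transcript in that value was not tested.

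In RM-9 tumors the groups overlapped for both genes at every time. S100a9 was at 4.44, 6.95, 5.07 and 4.73 TPM in control mice, 7.74, 4.22, 1.06 and 2.92 TPM at 3 h, 6.69, 10.6, 6.81 and 1.98 TPM at 12 h and 12.8, 5.86 and 8.41 TPM at 24 h. At 3 h mice 2, 3 and 4 and at 12 h mouse 4 were below all control mice, while 1 mouse at 3 h, 1 at 12 h and 2 of the 3 at 24 h were above them. The change at 24 h was 0.67 (SE 0.50, 95% interval -0.40 to 1.74, limma adjusted p = 1.0). S100a8 was at 3.49, 4.41, 2.46 and 4.02 TPM in control mice and at 5.66, 2.74 and 5.67 TPM at 24 h, and it was listed at 0 in RT 12 h mouse 4. For neither S100a8 nor S100a9 did the 24 h change differ between the models (differences of 0.45 and 0.23, limma adjusted p = 0.77 and 0.86), with 95% intervals of -1.15 to 2.04 and -1.04 to 1.49.

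Of the granule genes, Lcn2 (chromosome 2, 32384633 to 32388252, minus strand) was at 7.67, 8.01, 10.4 and 7.60 TPM in MC-38 control mice, at 12.2, 16.2, 10.5 and 20.3 TPM at 12 h and at 10.5, 8.87, 15.8 and 11.1 TPM at 24 h. At 12 h all 4 irradiated mice were above all control mice, although the lowest exceeded the highest control mouse by little, and at 24 h 3 of 4 were. The 12 h change was 0.75 (SE 0.36, limma adjusted p = 0.11; exact permutation p = 0.0286). Together with Csf3 this made 2 of the 10 genes with every irradiated mouse above every control mouse, where 34.5% of all genes tested showed the same. At 24 h it was Csf2 and Csf3, again 2 of 10, against 14.8%.

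In RM-9 tumors Lcn2 was lower, at 3.97, 1.05, 0.726 and 0.718 TPM in control mice and at 0.445, 0.602, 0.0885 and 0.279 TPM at 3 h. All 4 mice at 3 h were below all 4 control mice, the 1 gene of the 10 for which this was so, against 2.87% of all genes tested. The change was -1.11 (SE 0.40, limma adjusted p = 0.15; exact permutation p = 0.0286). At this time 0 of the 10 genes were called and 0.228% of all genes. At 12 h (0.305, 0.577, 1.52 and 0.161 TPM) and 24 h (1.10, 1.64 and 1.02 TPM) the groups overlapped. Skeletal muscle genes summed to 218 to 2057 TPM in RM-9 control mice and to 24.4, 810, 2.95 and 5.61 TPM at 3 h. They summed to 2.75, 17.2, 855 and 74.7 TPM at 12 h and to 200 to 2103 TPM at 24 h. The part of muscle tissue in the RM-9 changes of Lcn2 and Retnlg was not tested.

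The change of Lcn2 at 12 h was the 1 of the 10 that differed between the models, by 1.53 in MC-38 over RM-9 (SE 0.57, 95% interval 0.38 to 2.69, limma adjusted p = 0.031). At that contrast 45.4% of all genes were called, nearly all of them higher, so 1 of 10 is below the share of all genes. With median-ratio scaling the difference was 1.196 (limma adjusted p = 0.26), and without RM-9 control mouse 1, which had 3.97 TPM, it was 1.10 (adjusted p = 0.079). The deposited FPKM of Lcn2 exceeded the value implied by its coverage by 1.91 to 3.24 times, and on coverage the difference was 0.99 (limma adjusted p = 0.20).

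Mmp8 (chromosome 9, 7558429 to 7568486, plus strand) was at 0.401, 1.29, 0.716 and 0.681 TPM in MC-38 control mice and at 1.17, 1.13, 1.19 and 1.18 TPM at 24 h. The irradiated mice were close to each other, and control mouse 2 was above them all. The change was 0.43 (SE 0.30, limma adjusted p = 0.35). At 3 h mouse 3 had 2.01 TPM against 0.333 to 0.397 TPM in the others. In RM-9 tumors Mmp8 was at 0.327 to 1.04 TPM in control mice and at 0.29 to 0.715 TPM after RT, with changes between -0.043 and 0.027.

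Retnlg (chromosome 16, 48872608 to 48874498, plus strand) had, like Lcn2, its lowest values in RM-9 tumors soon after RT. Control mice had 4.85, 4.40, 1.68 and 2.65 TPM, mice at 3 h had 0.273, 2.90, 0.640 and 0.794 TPM and mice at 12 h had 1.93, 0, 2.10 and 1.26 TPM. The groups overlapped at both times, through 1 mouse at 3 h and 2 at 12 h. The changes were -1.38 (SE 0.52, limma adjusted p = 0.16) and -1.25 (SE 0.52, adjusted p = 0.12), at a time (12 h) when 8.37% of all genes but 0 of the 10 were called (10 higher and 1163 lower, or 10 and 6 with median-ratio scaling). At 24 h it was at 4.32, 2.62 and 1.60 TPM, the last just under the lowest control mouse. In MC-38 tumors Retnlg was listed at 0 in 4 of 16 libraries, with 2.36, 0.334, 0 and 0.780 TPM in control mice and 1.96, 0, 2.72 and 1.83 TPM at 24 h. These rest on an estimated 0 to 36.3 reads, and the change of 0.65 had a 95% interval of -0.51 to 1.80.

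Of the receptors, Csf3r (chromosome 4, 126024550 to 126044440, plus strand) had its lowest MC-38 values at 12 h. It was at 3.82, 4.47, 4.84 and 6.26 TPM in control mice and at 3.08, 3.12, 4.20 and 1.86 TPM at 12 h, so 3 of the 4 irradiated mice were below every control mouse. The change was -0.61 (SE 0.23, 95% interval -1.09 to -0.13, limma adjusted p = 0.052). After median-ratio scaling it was -0.92 (limma adjusted p = 0.017), after rescaling without mitochondrial genes -0.76 (adjusted p = 0.032), on coverage per depth -0.87 (adjusted p = 0.011), and without RT mouse 3 -0.76 (adjusted p = 0.043). At 24 h Csf3r was at 5.31, 5.21, 5.43 and 6.37 TPM, within or just above the control range. In RM-9 tumors it was at 1.44 to 2.55 TPM in control mice, and the changes were -0.16, -0.23 and 0.25.

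Cxcr2 (chromosome 1, 74153989 to 74161246, plus strand), which carries neutrophils toward chemokine, was low in both models, at 0.463 to 0.713 TPM in RM-9 and 0.383 to 0.890 TPM in MC-38 control mice. At 3 h and 12 h its change lay between -0.071 and 0.048. At 24 h it was 0.46 in RM-9 (SE 0.26, limma adjusted p = 1.0), where 2 of 3 mice were above every control mouse, and 0.28 in MC-38 (SE 0.19, adjusted p = 0.33), where 1 of 4 was. The lowest RM-9 libraries were RT 3 h mouse 3 with 0.220 TPM and RT 12 h mouse 4 with 0.231 TPM, the same mice that were lowest for S100a9. The plots of the markers by mouse and of the fold changes show all values.

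**Figure D2:**
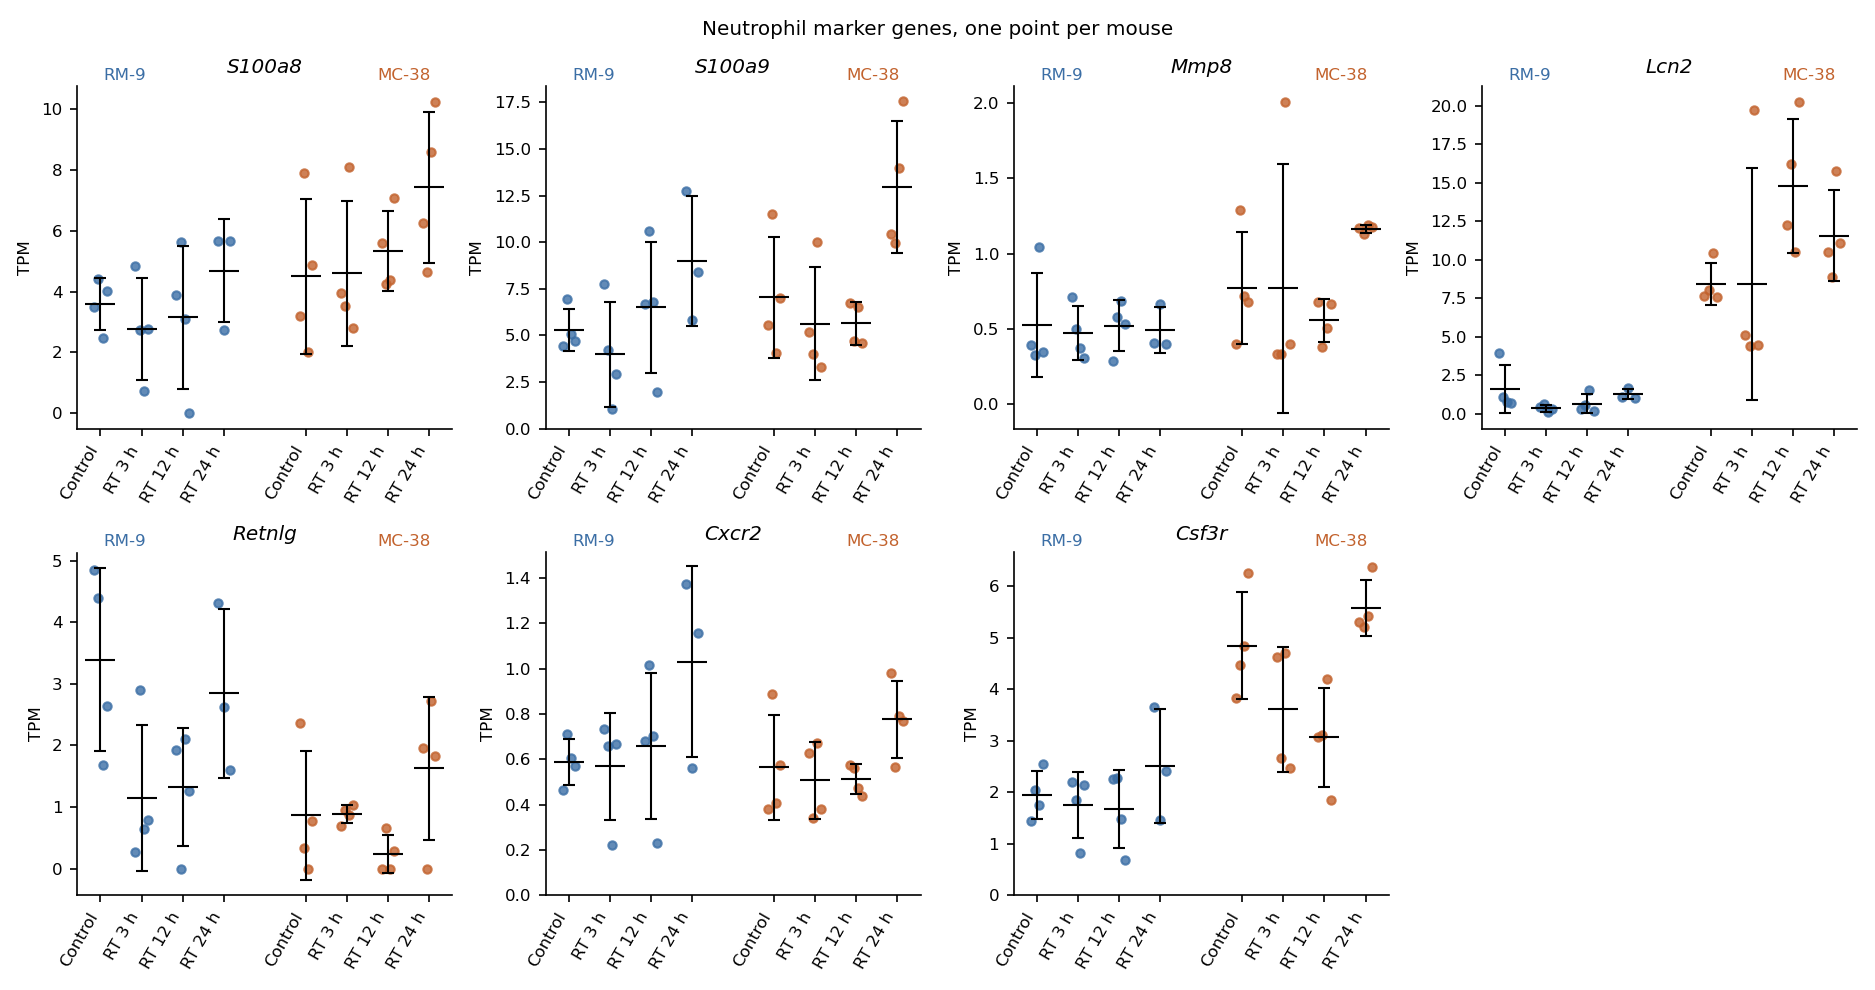
TPM of the 7 neutrophil marker genes on linear axes by group in RM-9 (blue) and MC-38 (orange) tumors, with 1 point per mouse and the mean ± SD of each group in black. In MC-38 tumors S100a9 at RT 24 h lies at 9.97 to 17.6 TPM against 4.05 to 11.5 TPM in control mice, and for most markers the groups overlap.

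**Figure D3:**
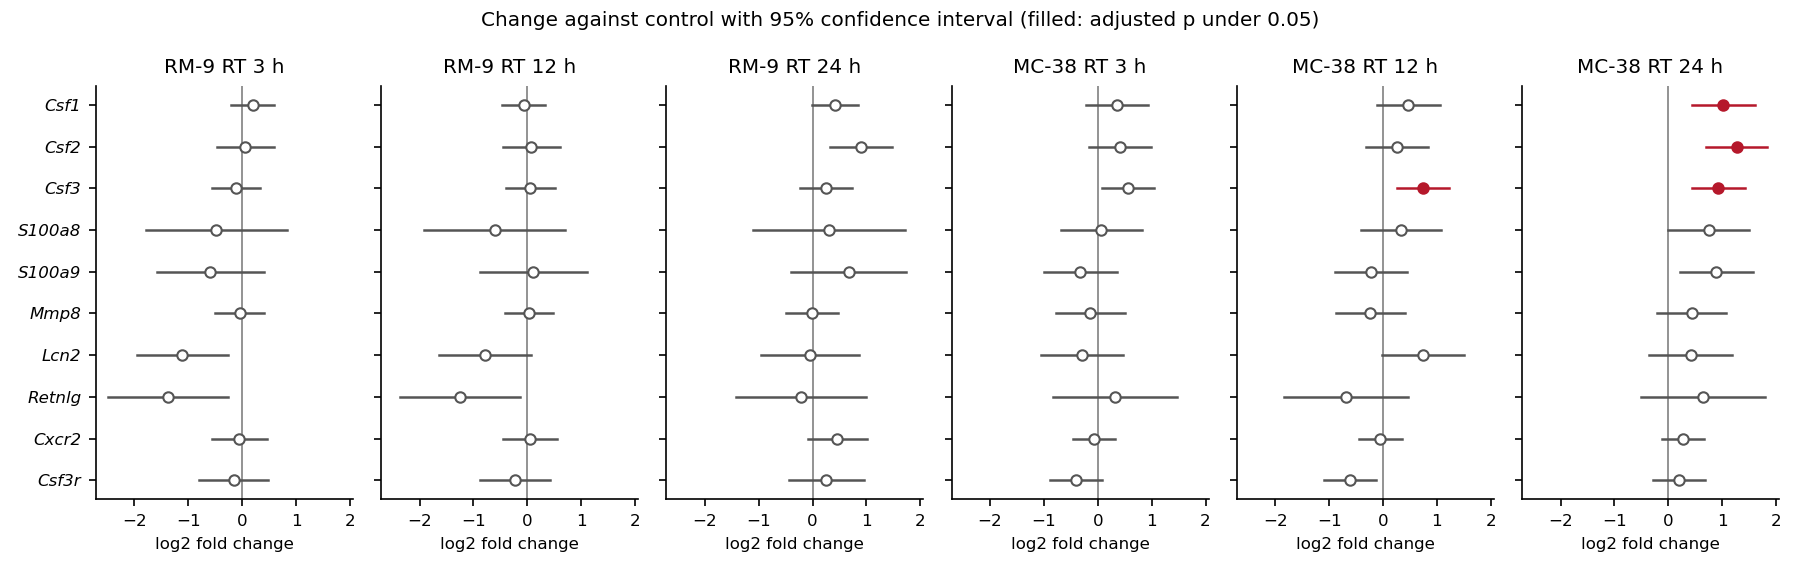
Log2 fold change of TPM + 0.5 against control for the 10 genes in 6 comparisons, with 95% confidence intervals from limma and filled red points for an adjusted p under 0.05. The filled points are Csf3 in MC-38 tumors at 12 h (0.74) and Csf1, Csf2 and Csf3 at 24 h (1.025, 1.27 and 0.93).

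Before RT the models differed in 5 of the 10 genes, where 75.4% of all genes were called. The median difference over all genes was 0.63, and tumor model and sequencing run cannot be told apart in this comparison. Lcn2 was higher in MC-38 than in RM-9 control tumors by 2.31 (SE 0.40), Csf1 by 2.01 (SE 0.25) and Csf3r by 1.13 (SE 0.28). Retnlg was lower by 1.72 (SE 0.56, limma adjusted p = 0.0077) and Csf2 by 0.94 (SE 0.26, adjusted p = 0.0020). S100a8, S100a9, Mmp8, Cxcr2 and Csf3 did not pass the test. With median-ratio scaling the difference in Csf3r was 0.56 (limma adjusted p = 0.094). Per length, the median level over all libraries of a model ranked S100a9 first among the markers in RM-9 tumors (5.86 TPM), ahead of S100a8 (3.49 TPM), while in MC-38 tumors Lcn2 (10.5 TPM) was ahead of S100a9 (6.65 TPM), and the ranges of these neighbours overlapped. At MC-38 RT 24 h alone the order was the other way, with medians of 10.8 TPM for Lcn2 and 12.2 TPM for S100a9.

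To see whether the markers rose and fell together in single mice, each was compared with the mean log2(TPM + 0.5) of the other 6, and each factor gene with the mean of all 7, over the 15 RM-9 and 16 MC-38 mice. In MC-38 tumors S100a9 followed the other markers (Pearson r = 0.86, Spearman rho = 0.84), as did Cxcr2 (r = 0.79, rho = 0.78), S100a8 (r = 0.78, rho = 0.82) and Mmp8 (r = 0.74, rho = 0.69). These are descriptions over mice that share groups and library scaling, and 20 such relations were computed. Without the 2 mice farthest from the median r was 0.78, 0.77, 0.67 and 0.73, and on deviations from the group means it was 0.77, 0.66, 0.81 and 0.61. Retnlg (r = 0.21) and Lcn2 (r = 0.33) were farthest from the others.

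In RM-9 tumors r was 0.78 for S100a9, 0.74 for Cxcr2, 0.74 for S100a8 and 0.71 for Csf3r, but rho was only 0.30 to 0.51. Without the 2 mice farthest from the median, r fell to 0.38, 0.33, 0.29 and 0.14, so these relations rest on RT 3 h mouse 3 and RT 12 h mouse 4, whose means over all 7 markers of 0.015 and 0.052 lay below the 0.69 to 1.73 of all other RM-9 mice. Mmp8 (r = -0.068) and Retnlg (r = 0.24) were farthest from the others.

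Of the factor genes, Csf2 followed the marker mean in MC-38 mice (r = 0.70, rho = 0.65). Without the 2 extreme mice r was 0.58, and on deviations from the group means it was 0.50. For Csf1 and Csf3 r was 0.34 and 0.38. In RM-9 mice r was 0.57 for Csf1, 0.22 for Csf2 and 0.33 for Csf3, and without the 2 mice farthest from the median it was 0.15, 0.63 and 0.47. On deviations from the group means it was 0.68, -0.17 and 0.16.

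**Figure D4:**
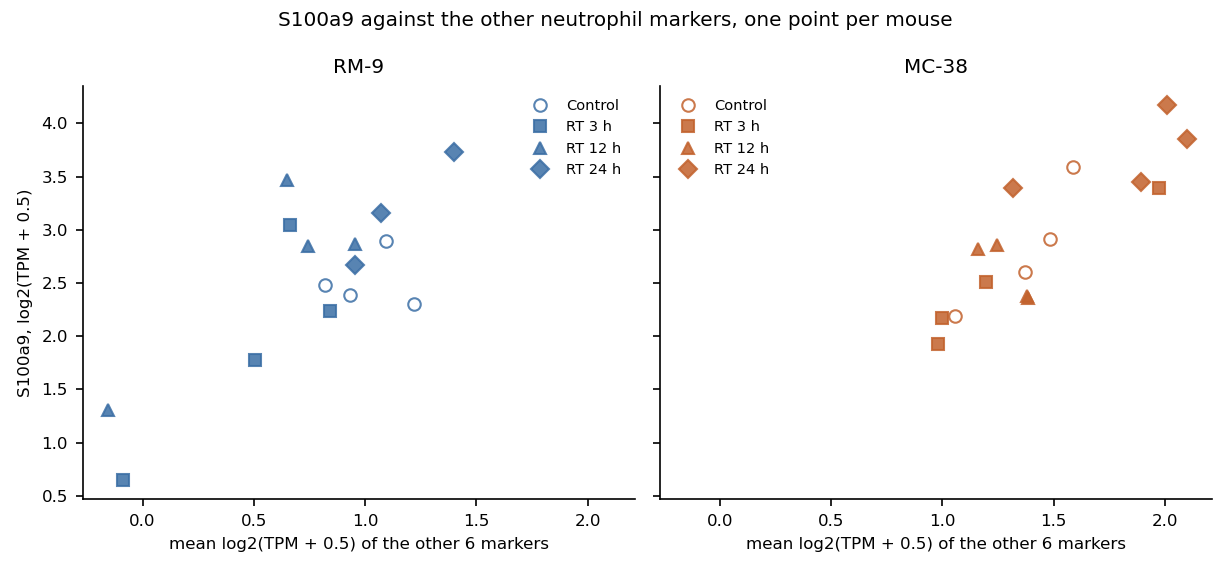
S100a9 as log2(TPM + 0.5) against the mean of the same measure for the other 6 markers, with 1 point per mouse, open circles for control and filled symbols for RT times. In RM-9 tumors 2 mice stand apart at the lower left, and in MC-38 tumors the points rise together (r = 0.86), and control mouse 2 and RT 3 h mouse 3 lie among the RT 24 h mice in S100a9.

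The genes, other than the 10, whose level tracked the marker mean most closely were ranked by Pearson r as a description. In RM-9 mice, out of 12690 genes, they included Fpr2, a formyl peptide receptor of neutrophils (r = 0.90), Sdf4 (0.87), Tlr2, a receptor for bacterial lipoproteins (0.87), and H2-Q5 (0.86), a member of a gene family with near-identical copies. Without the 2 mice that stand apart r was 0.90 for Fpr2, 0.74 for Tlr2, 0.51 for H2-Q5 and 0.33 for Sdf4. In MC-38 mice, out of 14230 genes, they included Acod1, which makes itaconate in activated myeloid cells (r = 0.88), Il7r (0.83), the macrophage marker Cd68 (0.83) and the lysosomal protease Ctsb (0.82).

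Lists of other genes tied to neutrophils were read next, and which cells made these transcripts was not tested. In MC-38 control tumors Padi4 and Prtn3 had means of 41.6 and 5.41 TPM, while Camp and Elane were at 0. Of 12 neutrophil genes listed with the granule proteins, Ly6g among them, 4 in each model reached a mean TPM of 0.5. In MC-38 tumors at 24 h, 2 of these 4 rose, where 13.2% of all genes were called higher. Mmp9, gelatinase B, rose from a mean of 11.4 to 49.9 TPM (log2 change 1.70, SE 0.46, limma adjusted p = 0.024). Its level at 24 h was 125 TPM in mouse 1 and 21.7 to 26.5 TPM in the other 3 mice, all above the highest control mouse at 15.4 TPM. Without mouse 1 the mean was 24.8 TPM and the change 1.11 (adjusted p = 0.033), and without control mouse 1 the call was lost (adjusted p = 0.067). The other was Chil3, a chitinase-like protein, from 7.05 to 19.6 TPM (1.34, SE 0.40, limma adjusted p = 0.036), a call that 6 of the 8 fits with 1 mouse left out did not keep (adjusted p up to 0.080). The calls of Mmp9 and Chil3 were lost with median-ratio scaling (limma adjusted p = 0.060 and 0.12). At 12 h Prtn3, the gene for proteinase 3, was higher (1.06, SE 0.27, limma adjusted p = 0.016), a call also lost with that scaling (adjusted p = 0.066) and without RT mouse 4 (adjusted p = 0.053). Of the 4 tested in RM-9 tumors, no granule gene was called. Among those tested in neither model, Camp was at 0 in every group, and Elane, Mpo, Ngp and Ltf had group means of at most 0.194 TPM. Cd177 was at 0.356 to 0.695 TPM in RM-9 mice at 24 h against 0.124 to 0.215 TPM in control mice. In MC-38 mice it was at 0.683 to 1.59 TPM against 0.191 to 0.429 TPM. The groups overlapped for Ctsg in both models.

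Of 18 surface and activation genes, 17 were tested in MC-38 tumors. At 24 h 4 rose, against the 13.2% of all genes called higher, and 0 fell. Among them were Hdc, which makes histamine (from 5.23 to 11.7 TPM, change 1.12, SE 0.16, limma adjusted p = 0.00082), Acod1 (0.91, SE 0.23, adjusted p = 0.019) and Clec4e, a receptor for microbial glycolipids (0.73, SE 0.20, adjusted p = 0.025), of which Hdc was called also with median-ratio scaling and with each mouse left out. The call of Acod1 was lost in 2 and that of Clec4e in 3 of the 8 fits with 1 mouse left out (limma adjusted p up to 0.057 and 0.066). At 12 h, when 28.5% of all genes were called higher and 2.59% lower, 1 rose and 3 fell. The 1 that rose was Padi4, which citrullinates histones (from 41.6 to 77.4 TPM, change 0.92, SE 0.23, limma adjusted p = 0.016). Among those that fell were the receptors Fcgr4 (-1.21, SE 0.28, adjusted p = 0.012) and Fpr1 (-1.26, SE 0.34, adjusted p = 0.020). In RM-9 tumors 1 of 15 tested was called, Fcgr4 at 12 h (-0.72, SE 0.18, limma adjusted p = 0.032), where 8.3% of all genes were called lower. It was called neither with median-ratio scaling (limma adjusted p = 0.27) nor in 6 of the 8 fits with 1 mouse left out (adjusted p up to 0.11). Fpr1 lost its call in 3 of 8 such fits (limma adjusted p up to 0.059). Of 6 granulocyte transcription factors 4 were tested, and the 2 called were both lower in MC-38 tumors at 12 h, Spi1, the gene for PU.1 (from 29.4 to 13.4 TPM, change -1.15, SE 0.23, adjusted p = 0.0084), and Cebpa (-0.67, SE 0.22, adjusted p = 0.035), of which Cebpa lost its call in 5 of 8 fits with 1 mouse left out (adjusted p up to 0.10).

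Among the receptors, related cytokines and signalling genes of the factors, 16 were tested in MC-38 tumors. At 12 h 5 rose and 3 fell, so that the share called higher was near that of all genes (28.5%) and the share called lower above it (2.59%). With median-ratio scaling all genes called were split into 984 higher and 1569 lower. Among those that fell were the GM-CSF receptor subunit Csf2ra (-0.97, SE 0.23, limma adjusted p = 0.014) and its relative Csf2rb2 (-0.86, SE 0.23, adjusted p = 0.019; up to 0.059 with 1 mouse left out), and the signal transducer Stat5a rose (0.68, SE 0.14, adjusted p = 0.0099). At 24 h 7 rose, against 13.2% of all genes, and 0 fell, led by Il23a, an interleukin-23 subunit (from 2.64 to 6.34 TPM, change 1.12, SE 0.18, adjusted p = 0.0015), Stat5a (0.87, SE 0.14, adjusted p = 0.0016) and Stat3, which signals for G-CSF (0.65, SE 0.13, adjusted p = 0.0048). Il23a, Stat5a and Stat3 were called at 24 h with median-ratio scaling too. In RM-9 tumors 0 of the 15 genes tested were called at 12 h, against 8.37% of all genes.

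Markers of other cells moved at the same times, and not only those of myeloid cells. In MC-38 tumors at 12 h 3 of 5 T cell genes, 3 of 3 tested erythroid genes and the leukocyte gene Ptprc were called lower. At 24 h 2 of the 5 T cell genes were called lower. Of all genes tested in MC-38 tumors, 2.59% were called lower at 12 h, and 13.2% higher and 0.548% lower at 24 h. In MC-38 tumors the 5 monocyte genes summed to 202 to 369 TPM in control mice, 110 to 187 TPM at 12 h and 344 to 684 TPM at 24 h, and 3 of the 5 were lower at 12 h and 2 higher at 24 h (limma). The 7 macrophage genes summed to 614 to 974 TPM in control mice, 229 to 533 TPM at 12 h and 504 to 627 TPM at 24 h, with 3 called lower at 12 h and 0 called at 24 h. In RM-9 tumors at 12 h 3 of the 7 macrophage genes were lower, where 8.3% of all genes were, and none of these 3 was called with median-ratio scaling (limma adjusted p = 0.10 to 0.22). Also called lower in RM-9 tumors at 12 h were 2 of 3 tested T cell genes, Ptprc and 1 of 4 epithelial genes. Ly6g, the defining neutrophil gene, was listed at 0 in all 4 MC-38 mice at 24 h and in all 4 MC-38 control mice. Its values there could not show whether neutrophils changed. In RM-9 tumors Ly6g was at 3.43, 0.638 and 1.57 TPM at 24 h against 0.795 to 1.99 TPM in control mice. The part of monocyte and macrophage transcript in the changes of S100a8, S100a9 and the factor genes was not tested.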

How the data were processed

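The authors sequenced mRNA on single-end reads of 75 bases (TruSeq Stranded mRNA kit, per the labels) and deposited 1 table per library with TPM, FPKM and coverage of each gene. TPM and FPKM were made by the authors and differ by a factor fixed within a library. The deposited coverage is an unscaled signal (reads over a base, averaged over the gene), used here for depth and an added alternative. The submitters' processing notes name bcl2fastq 2.17 and GRCm39, but of the 46072 genes, 45137 are in GENCODE M21 (GRCm38), all on the same chromosome and 91.1% with the same start or end, so coordinates are read as GRCm38. The aligner and the quantification program are not given in the sources used here. Rows of a repeated gene were summed. TPM depends on the rest of the library, so a large mitochondrial share lowers all other genes.

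Values were fitted as log2(TPM + 0.5) with limma 3.58.1 (R 4.3.3, lmFit and eBayes with trend), all 4 groups of a model in 1 fit, and contrasts between models in 1 fit of all 31 libraries and 8 groups. Tested were genes whose mean TPM reached 0.5, plus the 10 genes. Correlations across mice are given without p-values, because one side is a score over the named genes. Exact permutation tests were two-sided, with 70 assignments of 4 against 4 mice. In simulated data of the MC-38 24 h design, 74% of genes changed by 1 on the log2 scale and 98% of those changed by 2 were recovered. The RM-9 24 h design gave 86% and 97%. Noise was drawn independently for each gene and library, and only genes with a mean log2(TPM + 0.5) above 1 were changed. The rates therefore do not cover Csf2, Csf3, Cxcr2 and Mmp8 in either model, Retnlg in MC-38 tumors or Lcn2 in RM-9 tumors, which lay below that level. Named list genes are at most the 3 with the smallest p among those called per list and comparison. The 10 genes and the lists were chosen with earlier results of these data known. 1 gene of the receptor and signalling list and 2 of the genes ranked by likeness are not reported here. Replicates are separate mice, and no 2 libraries held identical values. Alternatives were pseudocounts of 0.1 and 1, 2 other scalings, other filters, the replicate number as a block, no trend, only the compared groups, each mouse left out and, added after seeing the data, coverage per depth. Permutations were run in scipy 1.17.1 (Python 3.11.15).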

Additional observations from a re-analysis of the deposited data

Results flagged for a closer look

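In groups of 4 mice, 8 of 70 gene and group pairs held a mouse far from the other 3 by Dixon's test, where chance gives about 1 in 20. Lcn2 was high in RM-9 control mouse 1 (3.97 TPM against 0.718 to 1.05 in the others), in MC-38 control mouse 3 (10.4 TPM against 7.60 to 8.01) and in MC-38 RT 3 h mouse 3 (19.8 TPM against 4.42 to 5.09). Mmp8 was high in the same MC-38 RT 3 h mouse 3 (2.01 TPM) and in RM-9 control mouse 3 (1.04 TPM against 0.327 to 0.394). Cxcr2 was low in RM-9 RT 3 h mouse 3 (0.220 TPM against 0.657 to 0.735). Csf2 was high in RM-9 RT 12 h mouse 4 (1.32 TPM against 0.447 to 0.585), and Csf3 in RM-9 control mouse 2 (0.298 TPM against 0.102 to 0.134).

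The 12 h change of Lcn2 differed between the models by a test of the difference itself, an interaction contrast in limma, by 1.53 on the log2 scale (adjusted p = 0.031, from 4 mice per group). With other settings the adjusted p ran up to 0.26.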

How the results depend on the processing

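Over 2020 values of the 10 genes under alternatives, 1980 kept their side of the threshold, 30 lost a call, 10 gained one and 0 called values changed direction. At MC-38 RT 12 h, where 1 of the 10 genes was called, the count was 2 after rescaling without mitochondrial genes, 0 with the TPM filter set at 5 and 0 with only the compared groups, and it ran from 0 to 2 with each mouse left out. With median-ratio scaling and on coverage per depth the count stayed at 1. There Csf3 lost its call (limma adjusted p = 0.075 and 0.057) and Csf3r gained one (0.017 and 0.011). At MC-38 RT 24 h the count of 3 was 1 with the TPM filter set at 5 and 1 with only the compared groups, and 2 to 4 with each mouse left out. For the difference between models at 12 h the count of 1 was 2 with a pseudocount of 0.1, 2 with the replicate block, 0 with median-ratio scaling, 0 after rescaling without mitochondrial genes, 0 without a filter, 0 on coverage per depth and 0 to 2 with each mouse left out. The stricter TPM filter left fewer genes tested, and with only the compared groups fewer mice entered the fit. Whether these or other differences moved the counts was not tested for any setting.

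Counts over all genes moved by more than 1.5 times from 32 to between 0 and 514 (RM-9 RT 3 h), 1173 to 0 and 1573 (RM-9 RT 12 h), 0 to 0 and 2 (RM-9 RT 24 h), 10 to 1 and 425 (MC-38 RT 3 h), 4876 to 1340 and 7293 (MC-38 RT 12 h) and 2163 to 318 and 3530 (MC-38 RT 24 h). Median-ratio scaling gave 237 higher and 169 lower against 28 and 4 (RM-9 RT 3 h), 10 and 6 against 10 and 1163 (RM-9 RT 12 h) and 984 and 1569 against 4470 and 406 (MC-38 RT 12 h). The differences between models gave 0 to 9 genes against 0 at 3 h, 460 to 8575 against 6975 at 12 h and 33 to 1445 against 278 at 24 h.

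Replicate numbers in the labels name different mice. Same-numbered control and RT mice did not deviate together in every pair (correlations from -0.48 to 0.56), so the numbers were not read as pairs, and the replicate block left the counts of called genes among the 10 unchanged in the 6 comparisons with control. In the 12 h difference between models the block brought Csf3 past the threshold (limma adjusted p = 0.048). Calls on Csf2 and Csf3 are limited by depth, at an estimated 0 to 22.5 and 0 to 23.9 reads per MC-38 library.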
